A study of Mus musculus with 30 samples.

Results

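The 10 genes that encode the NF-κB transcription factor and the proteins that hold it back were followed through a 6-day course of skin inflammation in wild type (WT) and D6-deficient mice. They are the 5 Rel-family subunits Nfkb1, Nfkb2, Rel, Rela and Relb, the feedback inhibitors Nfkbia, Nfkbie and Tnfaip3, and the nuclear cofactors Nfkbiz and Bcl3. All probe sets (groups of oligonucleotides that report 1 transcript) carrying 1 of these 10 gene symbols were taken, which gave 19 of the 45037 probe sets, and 10 of the 22121 gene symbols, of the array. The Rel family had 6 of them, the inhibitors 9 and the cofactors 4. Where a gene had several, the probe set with the highest mean over all arrays stands for it below. The others are given where they passed or went the other way in a comparison the text turns on.

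The mice were female, 8 to 12 weeks old and of a mixed 129–C57BL/6 background. D6 (gene Ccbp2) is an atypical chemokine receptor that takes up inflammatory CC chemokines without signalling like a classical receptor, and the D6-deficient mice carry a null D6 gene. Shaved back skin was painted with 3 applications of 50 µM TPA, a phorbol ester that activates protein kinase C, at 24 h intervals, and whole skin was taken 1, 2, 4 or 6 days after the last. Day 0 skin of either genotype, called untreated in the sample titles, had received only the solvent acetone, so each later day differs from it by 3 doses of TPA as well as by time. There were 3 arrays, from 3 mice, for every genotype on every day, which makes 10 groups and 30 arrays. The values are log2 of the deposited RMA intensities. RMA corrects the background, quantile-normalizes the arrays and summarizes each probe set, so a level can be compared between arrays for 1 probe set but not between probe sets.

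Differences were fitted with limma over all 30 arrays, and p-values were adjusted by the Benjamini-Hochberg method over the 36029 probe sets that were not among the dimmest 20%. All 19 probe sets of the 10 genes were in that set, and "passed" means an adjusted p under 0.05. The standard error (SE) of a log2 difference comes from the spread between arrays within groups, and folds are given from the log2 difference. Levels of the D6 gene were lower in the D6-deficient arrays at 1 of its 3 probe sets without overlap (3.30 to 3.86 against 4.15 to 5.76), lower with overlap at another (4.55 to 5.42 against 5.14 to 6.26), and not separated at the brightest (6.59 to 8.09 against 6.69 to 8.54). Which of them lie in the deleted part was not given in the sources used here. Arrays of a group correlated at 0.985 or higher with each other, except D6-deficient day 6, where the lowest correlation was 0.972. The 18 hybridisation control probe sets split the arrays into 2 sets that cut across the groups, but all 3 D6-deficient day 6 arrays were in the same set. Results that changed with this set as a covariate are named below.

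NF-κB is a family of dimers built from 5 subunits that share a DNA-binding Rel homology domain. In resting cells IκB proteins such as the products of Nfkbia and Nfkbie keep the dimers in the cytoplasm. Signals from cytokine receptors, pattern-recognition receptors or protein kinase C activate the IκB kinase, IκB is degraded and the dimers enter the nucleus. Many of the genes they switch on encode their own inhibitors, among them IκBα (Nfkbia), IκBε (Nfkbie) and the ubiquitin-editing enzyme A20 (Tnfaip3). IκBζ (Nfkbiz) and Bcl-3 (Bcl3) act inside the nucleus, where they bind subunits on DNA and alter which target genes are read. In skin the pathway works in keratinocytes, fibroblasts and leukocytes, and its activity is set largely by protein location, which RNA levels do not measure.

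The promoters of several of these genes carry letters of the kind that NF-κB dimers recognise, and they are shown because NF-κB is known to induce several of its own subunits and inhibitors. The RefSeq promoter table (mouse build GRCm38.p6) held windows of 300 bases, 250 before and 50 after the start, for 7 of the 10 genes, 10 windows in all. Nfkb1, Relb and Nfkbiz had no entry. The 10-letter κB consensus was searched on both strands, overlapping matches included. It was found in 8 of the 10 windows and in 6 of the 7 genes. Of all windows in the table, 2779 of 32851 (8.46%) and 2581 of 27025 genes (9.55%) held it. The single Rela window had no such letters. A match describes the sequence only, and binding was not measured. Below, the 130 bases before the start are printed 5′ to 3′ on the gene's strand for 5 genes, and 30 bases around the start for Bcl3, whose match lies just after it. Capitals mark the κB consensus.
Nfkb2: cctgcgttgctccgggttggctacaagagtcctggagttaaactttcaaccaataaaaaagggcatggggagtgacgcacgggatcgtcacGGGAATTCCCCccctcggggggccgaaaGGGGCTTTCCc
Rel: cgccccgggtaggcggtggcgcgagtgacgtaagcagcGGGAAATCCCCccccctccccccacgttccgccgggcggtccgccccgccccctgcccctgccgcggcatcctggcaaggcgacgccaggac
Nfkbia: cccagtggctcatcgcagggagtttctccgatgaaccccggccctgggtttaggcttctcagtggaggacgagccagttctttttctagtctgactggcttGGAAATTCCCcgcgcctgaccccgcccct
Nfkbie: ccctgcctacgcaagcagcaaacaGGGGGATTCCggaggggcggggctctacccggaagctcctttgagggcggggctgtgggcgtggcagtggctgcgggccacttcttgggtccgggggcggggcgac
Tnfaip3: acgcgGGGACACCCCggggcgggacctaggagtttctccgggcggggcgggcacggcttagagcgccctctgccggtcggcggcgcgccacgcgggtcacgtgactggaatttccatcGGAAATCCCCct
Bcl3: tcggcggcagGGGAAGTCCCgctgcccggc
The Nfkb2 stretch is chr19:46304607-46304736 on the plus strand, before a start inside the annotated gene, and its matches begin at bases -39 and -11, counted from that start. The Rel stretch is chr11:23770970-23771099 on the minus strand with the first capitals at base -92. The Nfkbia stretch is chr12:55492648-55492777 on the minus strand, where the match begins at base -29. The Nfkbie stretch is chr17:45555570-45555699 on the plus strand with its match beginning at base -106. The Tnfaip3 stretch is chr10:19015411-19015540 on the minus strand, and its matches begin at bases -125 and -12. The Bcl3 stretch is chr7:19822734-19822763 on the minus strand, and its match begins at base 3 of the transcript.

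Day 4 held the highest group mean of all 10 genes: D6-deficient day 4 for 9 of them and WT day 4 for Nfkb1. The second probe sets of Nfkbie and Tnfaip3 were instead highest on WT day 4 (7.04 and 6.76, against 6.96 and 6.61 on D6-deficient day 4), and the third of Nfkbiz on D6-deficient day 0 (7.32). The genes differed in how far they moved. Over the 10 group means Rel spanned 2.30 on the log2 scale, Nfkbiz 1.82 and Bcl3 1.58. Relb (0.98), Nfkb2 (0.93), Nfkbie (0.91), Nfkbia (0.91), Nfkb1 (0.72) and Tnfaip3 (0.69) spanned less, and Rela spanned 0.40, the least of the 10. Ranked by group mean, most neighbouring groups overlapped in their arrays. Of the 9 neighbouring pairs of each gene, 2 were apart for Nfkbia, 1 each for Nfkb1, Nfkb2, Relb, Nfkbiz and Bcl3, and none for Rel, Rela, Nfkbie and Tnfaip3. The lowest group was WT day 0 for Nfkb1, Nfkb2, Rel and Bcl3, D6-deficient day 1 for Rela, Relb, Nfkbia and Nfkbie, and D6-deficient day 6 for Tnfaip3 and Nfkbiz.

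**Figure D1:**
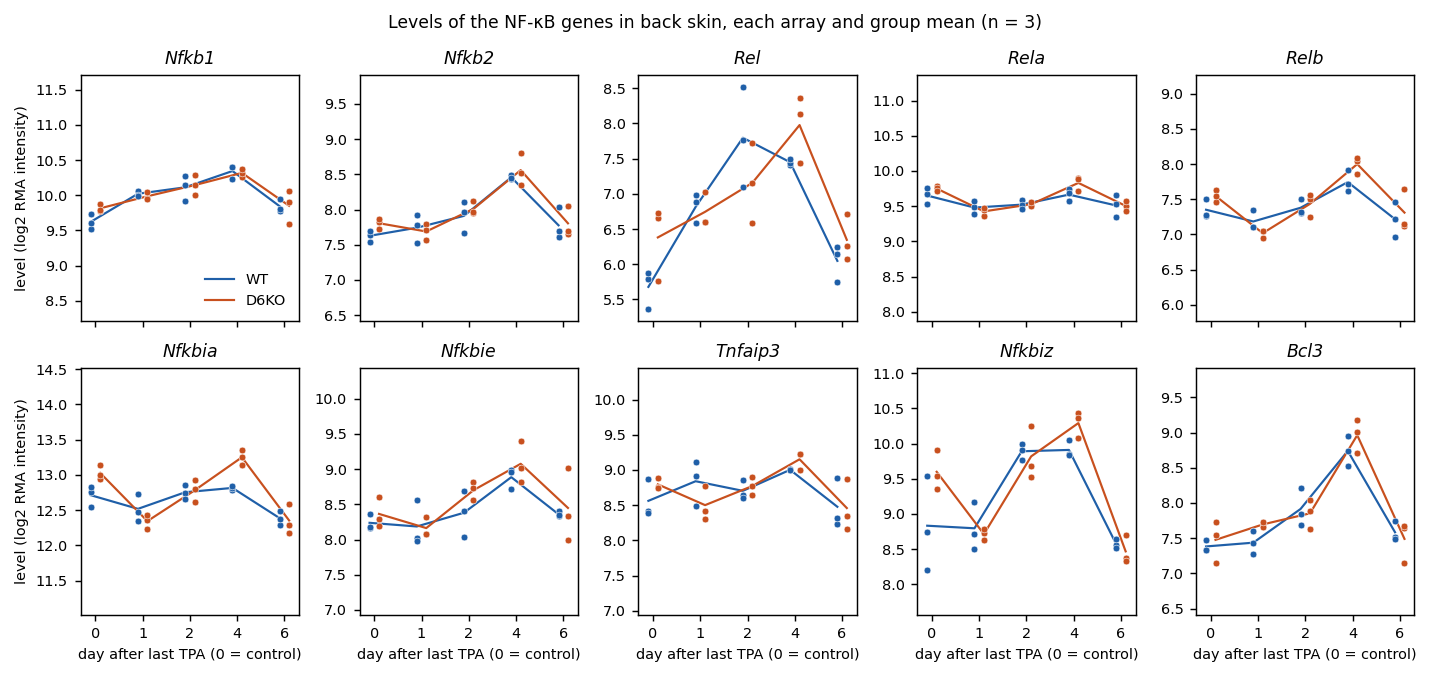
Level (log2 RMA intensity) of the 10 genes by day after the third TPA application, each panel with a window of 3.5 log2 units placed for that gene. Points are single arrays and lines join the means of 3 arrays, for WT and D6-deficient skin. Rel, Nfkbiz and Bcl3 move most and Rela least, and the highest mean of each gene is on day 4.

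Against acetone-treated skin of the same genotype, the members that passed in WT skin were higher on days 1, 2 and 4, and none was higher on day 6. In WT skin 2 of the 19 probe sets passed on day 1, both higher, where 24.0% of all tested probe sets passed. On day 2, 5 passed, all higher (26.1% of all tested), on day 4, 11 passed, all higher (39.1%), and on day 6, 3 passed, all lower (22.1%). The 3 on day 6 were all probe sets of Nfkbia. By gene, the brightest probe sets of 2, 4 and 7 genes were higher on days 1, 2 and 4, and that of 1 gene was lower on day 6. The share of members that passed on day 4 was above that of all tested probe sets, and the shares on days 1 and 6 were below it. Counted by direction, 17.3% of all tested probe sets were higher on WT day 4, and no member was lower. The median log2 change of the 10 genes on WT day 4 was 0.69, beside 0.01 for all tested probe sets. Whole skin was measured, so a change in the number of cells that carry a transcript and a change in its amount per cell cannot be told apart.

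In D6-deficient skin members that passed were mostly lower on day 1, higher on day 4 and lower on day 6. On day 1, 11 of the 19 probe sets passed, 10 of them lower (36.3% of all tested passed, 18.1% lower). On day 2, 3 passed, 2 higher and 1 lower (38.1%), and on day 4, 13 passed, all higher (41.1%, 18.8% higher). On day 6, 8 passed, all lower (31.7%, 15.7% lower). By gene, the brightest probe sets of 4 genes were lower on day 1, those of 7 genes higher on day 4 and those of 3 genes lower on day 6. The median change of the 10 genes was -0.25 on day 1 and 0.60 on day 4, with 0.02 and 0.01 over all tested probe sets. All comparisons of 1 genotype with day 0 share the same 3 day 0 arrays. Only Rel changed by more than 3-fold, on WT day 2, WT day 4 and D6-deficient day 4. Of all tested probe sets 1.90%, 3.24% and 4.01% did so and passed.

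Rel, which encodes the subunit c-Rel known best from lymphoid and myeloid cells, moved furthest. In WT skin its level was 5.37, 5.79 and 5.88 on day 0, 6.98, 6.88 and 6.58 on day 1, and 8.52, 7.77 and 7.10 on day 2. Neither of these later days overlapped with day 0, and day 2 had the widest spread of any group (SD 0.71). WT day 4 was tight at 7.42, 7.44 and 7.49 and WT day 6 returned to 6.25, 6.15 and 5.75. Rel rose by 1.14 on WT day 1 (SE 0.31, adjusted p = 0.00966), 2.12 on day 2 (4.34-fold, adjusted p = 2.27e-05) and 1.77 on day 4 (3.41-fold, adjusted p = 8.13e-05). The day 1 call rested on WT day 0 replicate 1, without which the difference was 0.98 with an adjusted p of 0.0557. The day 6 difference of 0.37 did not pass.

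In D6-deficient skin Rel stood at 6.66, 5.76 and 6.72 on day 0, so 2 of its arrays lay above every WT day 0 array. It was 6.60, 6.60 and 7.03 on day 1, 7.73, 6.58 and 7.16 on day 2, and 7.44, 8.35 and 8.13 on day 4. Only day 4 was clear of day 0, and there Rel rose by 1.60 (3.02-fold, adjusted p = 0.000216). On day 2 the difference was 0.77 with an adjusted p of 0.0534. This fell to 0.0482 without D6-deficient day 0 replicate 1, 0.0398 without day 0 replicate 3 and 0.0171 without day 2 replicate 2. By day 6 the arrays were at 6.26, 6.07 and 6.71, within the range of day 0.

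Nfkb1, which encodes p105 and its product p50, rose on the same WT days by less. Its WT level was 9.53, 9.73 and 9.61 on day 0, 10.07, 10.001 and 9.996 on day 1, 10.14, 10.27 and 9.92 on day 2, and 10.40, 10.40 and 10.23 on day 4. All 3 later groups lay above WT day 0, which had the lowest mean of the 10 groups. Nfkb1 rose by 0.40 (adjusted p = 0.00846), 0.49 (0.00147) and 0.72 (1.65-fold, 1.07e-05) on the 3 days, each with an SE of 0.11. In D6-deficient skin it was 9.78, 9.87 and 9.79 on day 0 and 10.26, 10.32 and 10.38 on day 4, a rise of 0.50 (1.42-fold, adjusted p = 0.000556). The D6-deficient rise of 0.33 on day 2 (adjusted p = 0.0179) no longer passed without day 0 replicate 1 (0.0561), day 0 replicate 3 (0.0508) or day 2 replicate 3 (0.103).

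Nfkb2, whose product p100 is processed to p52 in the alternative pathway, stood apart on day 4 alone. Its WT arrays were at 7.54, 7.64 and 7.69 on day 0 and 8.50, 8.43 and 8.45 on day 4, and the D6-deficient arrays at 7.82, 7.87 and 7.73 on day 0 and 8.81, 8.35 and 8.52 on day 4. Both day 4 groups lay above all other groups. The rise was 0.83 (1.78-fold, SE 0.14, adjusted p = 3.28e-05) in the WT and 0.75 in the D6-deficient mice (1.69-fold, 8.32e-05). Its second probe set ranged from 6.79 to 7.58 over the arrays and passed in no comparison with day 0. On the other days no Nfkb2 difference passed, though the WT day 2 difference did without WT day 2 replicate 3 (0.40, adjusted p = 0.0469).

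Relb, the partner of p52, was lowest in D6-deficient day 1 skin. Its D6-deficient level went from 7.64, 7.46 and 7.55 on day 0 to 6.95, 7.05 and 7.06 on day 1, and then to 8.04, 7.86 and 8.09 on day 4. These 3 groups did not overlap with one another. Relb fell by 0.53 on day 1 (1.44-fold, SE 0.14, adjusted p = 0.00374) and rose by 0.45 on day 4 (1.37-fold, 0.0096). In WT skin it was 7.26, 7.28 and 7.51 on day 0 and 7.91, 7.71 and 7.61 on day 4, a rise of 0.39 with an adjusted p of 0.0245. This call was lost without WT day 0 replicate 1 (0.085), day 0 replicate 2 (0.0758) or day 4 replicate 1 (0.118). On D6-deficient day 6 the difference of -0.24 did not pass, but did without day 6 replicate 3 (-0.41, adjusted p = 0.0205).

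Rela, which encodes p65, the transactivating partner of p50, moved least. Its level was 9.78, 9.76 and 9.71 on D6-deficient day 0 and 9.36, 9.44 and 9.47 on day 1, with no overlap, and it fell by 0.32 (SE 0.09, adjusted p = 0.00567). In WT skin it was 9.67, 9.53 and 9.76 on day 0 and 9.74, 9.57 and 9.68 on day 4, and no WT difference passed. The smaller falls in D6-deficient skin of 0.22 on day 2 (adjusted p = 0.0491) and 0.25 on day 6 (0.0354) were close to the threshold. The day 2 call was lost when any single array of the comparison was left out (adjusted p 0.0694 to 0.123), and the day 6 call with any of them except day 6 replicate 3 (0.0561 to 0.129). Both were also lost with the array set as a covariate (0.0507 and 0.0606), with each array centred on its median (-0.16, 0.188 and -0.21, 0.0884) and with only the arrays of the comparison fitted (0.0902 and 0.158), and the day 2 call with no filter on dim probe sets (0.0549).

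**Figure D2:**
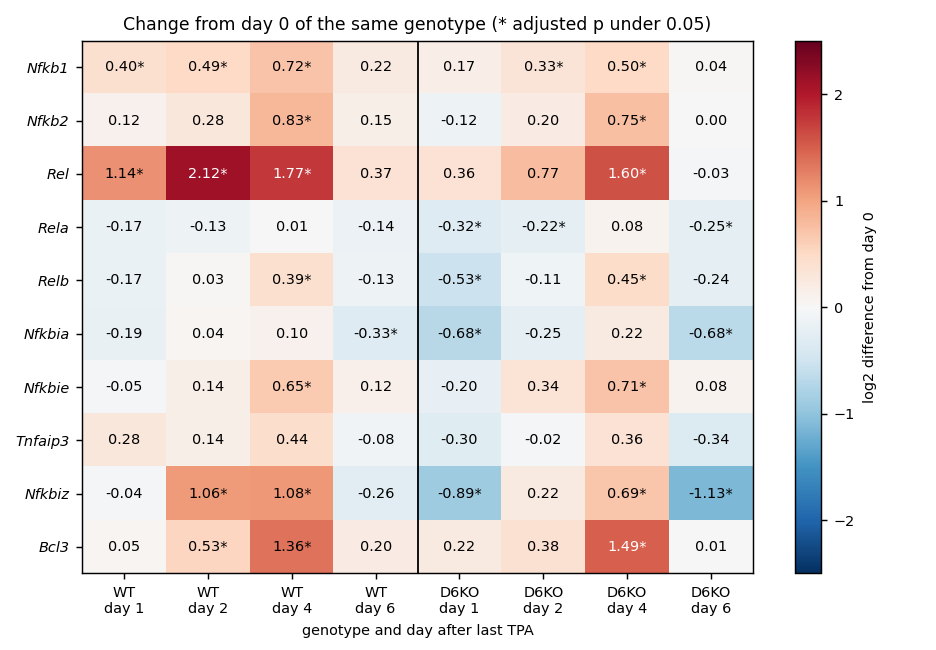
Log2 change of the 10 genes (rows) from acetone-treated skin of the same genotype on days 1, 2, 4 and 6 (columns), for WT and D6-deficient mice, with each value printed and an asterisk where the adjusted p was under 0.05. WT changes that pass on days 1, 2 and 4 run from 0.39 (Relb) to 2.12 (Rel), and all D6-deficient changes that pass on days 1 and 6 are below 0, down to -1.13 (Nfkbiz).

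Nfkbia, whose product IκBα is the main rapid feedback inhibitor, was lower on days 1 and 6 in D6-deficient skin. In WT skin it was 12.75, 12.55 and 12.83 on day 0, 12.48, 12.73 and 12.35 on day 1, 12.79, 12.81 and 12.84 on day 4, and 12.49, 12.29 and 12.37 on day 6. Days 1 and 4 overlapped with day 0, and day 6 lay below it. In D6-deficient skin it was 12.94, 13.00 and 13.14 on day 0, above every WT day 0 array, and 12.24, 12.36 and 12.43 on day 1. It then reached 13.35, 13.26 and 13.14 on day 4 and 12.29, 12.18 and 12.59 on day 6. Days 1 and 6 lay wholly below day 0. Nfkbia fell by 0.68 on D6-deficient day 1 (1.61-fold, SE 0.12, adjusted p = 6.99e-05) and by 0.68 on day 6 (1.60-fold, 0.000116).

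All 5 Nfkbia probe sets were lower on D6-deficient day 1, by -0.47 to -0.81, and 4 were lower on day 6. On day 4 the brightest did not pass in D6-deficient skin (0.22, adjusted p = 0.128), while 3 of the other 4 were higher, by 0.42, 0.55 and 0.63. In WT skin 1 probe set was higher on day 4 (0.48) and 3 were lower on day 6. The brightest was among the latter, at -0.33 with an adjusted p of 0.044. That call was lost without WT day 0 replicate 1 (0.121) or replicate 3 (0.158), or without WT day 6 replicate 2 (0.177) or replicate 3 (0.0858), and also with each array centred on its median (-0.30, 0.0894), for the mean of the 5 probe sets (0.0625), with no filter on dim probe sets (0.0501) and with only the arrays of the comparison fitted (0.116).

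Nfkbie, which encodes the slower inhibitor IκBε, rose on day 4 in both genotypes. WT arrays were at 8.17, 8.18 and 8.37 on day 0 and 8.71, 8.98 and 8.96 on day 4. D6-deficient arrays were at 8.30, 8.19 and 8.60 on day 0 and 9.40, 8.82 and 9.01 on day 4, again with no overlap. The rise was 0.65 (1.57-fold, SE 0.20, adjusted p = 0.0138) in the WT and 0.71 in the D6-deficient mice (1.64-fold, 0.00688). Without D6-deficient day 4 replicate 1 the latter was 0.55 with an adjusted p of 0.0503. The second probe set was higher by 0.70 on WT day 4, 0.57 on D6-deficient day 4 and 0.50 on D6-deficient day 2 (adjusted p = 0.00046, 0.0031 and 0.0092).

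Tnfaip3, which encodes A20, had a pair of probe sets that differed in sign in 3 of the 8 comparisons with day 0. At the brightest the WT level was 8.42, 8.39 and 8.87 on day 0 and 9.004, 9.01 and 8.99 on day 4, a difference of 0.44 that did not pass (adjusted p = 0.0619). It did without WT day 0 replicate 3 (0.60, 0.0227), with each array centred on its median (0.52, 0.0306), for the mean of both probe sets (0.54, 0.00621) and with only the arrays of the comparison fitted (0.0454). In D6-deficient skin it was 8.76, 8.74 and 8.89 on day 0 and 9.22, 9.23 and 9.0 on day 4 (0.36, adjusted p = 0.129), and the last 3 of these settings gave 0.0498, 0.0323 and 0.0438. Day 4 lay above day 0 without overlap in either genotype. The dimmer probe set was at 6.03, 6.18 and 6.14 on WT day 0 and 6.83, 6.77 and 6.67 on day 4, and passed on both WT day 4 (0.64, adjusted p = 0.00098) and D6-deficient day 4 (0.47, 0.011). On D6-deficient day 1 the dimmer one was higher by 0.39 (0.036) while the brightest stood at -0.30 (0.225), so no direction is given for Tnfaip3 on that day. The other disagreements, on D6-deficient day 2 (-0.02 and 0.22) and WT day 6 (-0.08 and 0.17), were in values that did not pass. The brightest also stood at -0.34 on D6-deficient day 6, which passed only without day 6 replicate 3 (-0.55, adjusted p = 0.0269).

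Nfkbiz, the gene of IκBζ, a nuclear cofactor needed for a subset of secondary response genes in keratinocytes and macrophages, moved in both directions. Its WT level was 9.55, 8.21 and 8.74 on day 0, where the spread was wide (SD 0.67), 9.18, 8.71 and 8.50 on day 1, and 9.998, 9.91 and 9.76 on day 2. It was 9.85, 9.83 and 10.05 on WT day 4 and 8.56, 8.51 and 8.65 on day 6. Days 2 and 4 were above every day 0 array, and days 1 and 6 were within the day 0 range. Nfkbiz rose by 1.06 on WT day 2 (2.08-fold, SE 0.23, adjusted p = 0.00144) and 1.08 on day 4 (2.11-fold, 0.000665). The mean of its second probe set went from 7.66 on WT day 0 to 8.82 on day 2 and 9.07 on day 4. The third moved less, with means of 6.93, 7.15 and 7.13, and both later days overlapped with its day 0 arrays.

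In D6-deficient skin Nfkbiz was at 9.54, 9.36 and 9.90 on day 0, a range that WT day 0 replicate 1 overlapped. It went down to 8.73, 8.79 and 8.62 on day 1 and back to 10.25, 9.67 and 9.53 on day 2. It was 10.43, 10.36 and 10.08 on day 4 and 8.38, 8.33 and 8.70 on day 6. Days 1 and 6 were below and day 4 above every day 0 array, while day 2 overlapped with it. Nfkbiz fell by 0.89 on day 1 (1.85-fold, adjusted p = 0.00424) and 1.13 on day 6 (2.19-fold, 0.000684), and all 3 of its probe sets were lower on both days. The day 4 rise of 0.69 (1.62-fold, adjusted p = 0.0188) did not pass without day 0 replicate 1 (0.0539), day 0 replicate 2 (0.0878), day 4 replicate 1 (0.0634) or day 4 replicate 2 (0.0576). On that day the second probe set rose by 1.02 (adjusted p = 0.0104), while the third, at 7.39, 7.203 and 7.36 on day 0 and 7.24, 7.41 and 6.999 on day 4, stood at -0.10 (0.716).

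Bcl3, whose product binds p50 and p52 dimers in the nucleus, rose in both genotypes, most on day 4. WT arrays were at 7.48, 7.34 and 7.33 on day 0, 8.22, 7.84 and 7.69 on day 2 and 8.96, 8.53 and 8.73 on day 4. D6-deficient arrays were at 7.73, 7.54 and 7.15 on day 0, 8.05, 7.63 and 7.88 on day 2 and 9.18, 8.71 and 9.001 on day 4. The 2 day 4 groups lay above all other groups. Bcl3 rose by 1.36 on WT day 4 (2.56-fold, SE 0.17, adjusted p = 8.91e-07) and by 1.49 on D6-deficient day 4 (2.80-fold, 1.64e-07). The WT day 2 rise of 0.53 (adjusted p = 0.0206) was lost without WT day 0 replicate 2 (0.0574), day 0 replicate 3 (0.0623) or day 2 replicate 1 (0.13). The D6-deficient day 2 difference of 0.38 (0.0804) passed without day 0 replicate 1 (0.0357) or day 2 replicate 2 (0.048).

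Between genotypes on the same day, only 1 of the 19 probe sets passed, on day 4. On day 0, where 1.57% of all tested probe sets passed, none did by limma and 7 had an unadjusted p under 0.05. All 10 genes and all 19 probe sets had a higher mean in the D6-deficient than in the WT acetone-treated mice, as did 49.3% of all tested probe sets. The 19 share the same arrays and 5 of them belong to Nfkbia, so their signs are not separate observations. The median difference of the 10 genes was 0.19. The arrays of 7 probe sets did not overlap between genotypes, against 21.6% of all tested probe sets. Several of these 7 were probe sets of Nfkbia alone. By brightest probe set, 3 of the 10 genes did not overlap, namely Nfkb1, Nfkb2 and Nfkbia. The arrays of Nfkbiz and Rel overlapped. Over the 10 genes the largest differences were 0.77 for Nfkbiz (95% interval 0.29 to 1.24, adjusted p = 0.0954), 0.70 for Rel (0.06 to 1.35, 0.296) and 0.32 for Nfkbia (0.08 to 0.55, 0.18). They were between 0.09 and 0.23 for the other genes, Nfkb1 and Nfkb2 among them. The Nfkbiz value depended on WT day 0 replicate 1, the array at 9.55, without which it was 1.12 with an adjusted p of 0.00877.

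On day 1 no member passed (0.0555% of all tested did) and none had an unadjusted p under 0.05, with gene differences from -0.34 for Tnfaip3 to 0.26 for Bcl3. On day 2, where 4.45% of all tested probe sets passed, none did by limma and 1 had an unadjusted p under 0.05. That 1 was not the brightest of its gene. Only the second probe set of Nfkbie had arrays that did not overlap between genotypes, against 22.3% of all tested probe sets. It was at 6.73 to 6.97 in D6-deficient and 6.44 to 6.57 in WT skin. The Rel difference was -0.64 (95% interval -1.29 to 0.00, adjusted p = 0.328), and Nfkbie differed by 0.32 (-0.10 to 0.74). The intervals for Nfkbiz (-0.55 to 0.41) and Nfkbia (-0.21 to 0.27) on that day lay on both sides of 0. On day 6 none passed (0.125% of all tested) and none had an unadjusted p under 0.05, with differences from -0.10 to 0.30.

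On day 4 the probe set that passed was the third brightest of Nfkbia, where 0.513% of all tested probe sets passed. Its arrays were at 11.19, 11.11 and 11.30 in WT and 12.01, 11.76 and 11.53 in D6-deficient skin, with no overlap, a difference of 0.57 (SE 0.13, adjusted p = 0.046). The call held when D6-deficient day 4 replicate 3 was left out and was lost when any of the other 5 arrays was. All 5 Nfkbia probe sets were higher in D6-deficient skin on day 4, by 0.41 to 0.57, each with an unadjusted p under 0.05. At the brightest the difference was 0.44 (95% interval 0.20 to 0.67, adjusted p = 0.0963). Rel (0.53, interval -0.12 to 1.17) and Nfkbiz (0.38, -0.10 to 0.86) did not pass.

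**Figure D3:**
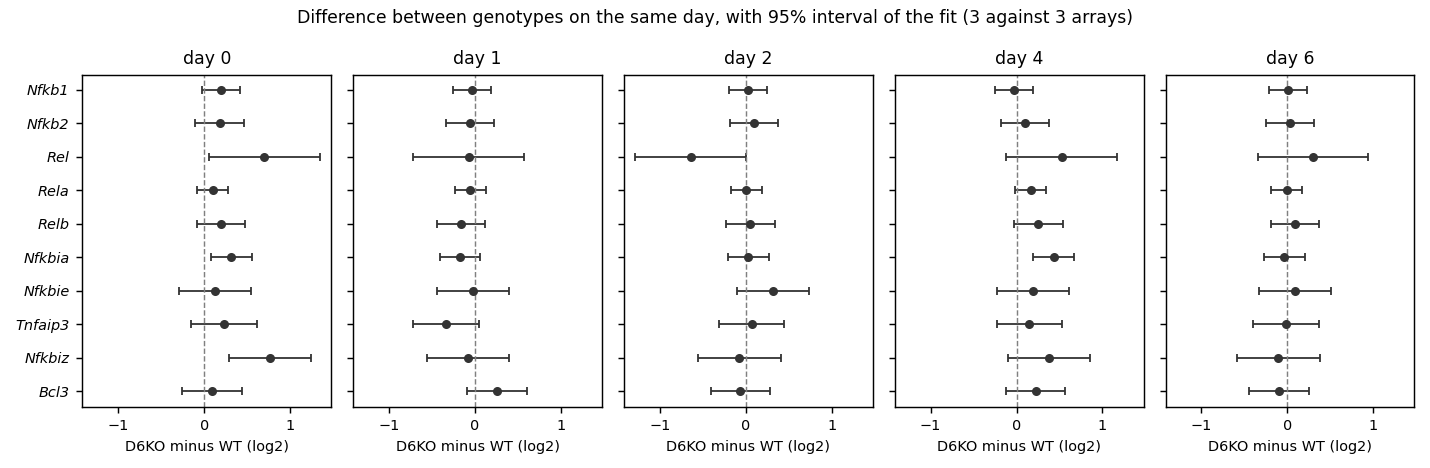
D6-deficient minus WT log2 difference of the 10 genes on each day, as points with the 95% interval of the limma fit from 3 against 3 arrays. All 10 points lie above 0 on day 0, from 0.09 to 0.77, and the interval clears 0 for Nfkbiz, Rel and Nfkbia on day 0 and for Nfkbia on day 4.

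Whether the change from day 0 differed between genotypes was tested as the interaction of genotype and day. None of the 19 probe sets passed on day 1, 2, 4 or 6, where 0.0194%, 5.40%, 0.608% and 0.0250% of all tested probe sets did. By limma 5, 5, 0 and 3 of them had an unadjusted p under 0.05. The widest gap was for Rel on day 2, where it rose by 2.12 in WT and the D6-deficient difference was 0.77, so that the D6-deficient change was smaller by -1.34 (SE 0.44, adjusted p = 0.0803). It passed without D6-deficient day 0 replicate 2 (-1.65, adjusted p = 0.027), D6-deficient day 2 replicate 1 (-1.63, 0.0329) or WT day 2 replicate 3 (-1.69, 0.0217). For Nfkbiz on day 2 the gap was -0.84 (SE 0.33, adjusted p = 0.161), and it passed without WT day 0 replicate 1 (-1.19, 0.0132). The falls of Nfkbia and Nfkbiz on D6-deficient day 1 were likewise not shown to differ from WT, with gaps of -0.49 (adjusted p = 0.303) and -0.85 (0.38). These gaps contain the day 0 difference between genotypes described above.

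Around the 10 genes, the known target genes of NF-κB rose in both genotypes, and 12 of them differed between genotypes on day 2. Of 38 target genes 35 were tested. In WT skin 17 were higher and 0 lower on day 2, and 29 higher and 0 lower on day 4, where 26.1% and 39.1% of all tested probe sets passed in either direction. In D6-deficient skin these counts were 21 and 0, and 28 and 0, beside 38.1% and 41.1%. On day 4 their median log2 change was 1.17 for WT and 1.38 for D6-deficient mice. Between genotypes on day 2, 10 were higher in D6-deficient skin and 2 lower, where 4.45% of all tested probe sets passed. None of the 10 members passed on that day, and whether targets and members differ in this was not tested.

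The 5 targets with the largest difference on day 2 were 4 chemokine genes and Ptgs2. Cxcl2, a neutrophil attractant, stood at 11.99 ± 0.36 (mean ± SD, n = 3) in D6-deficient and 8.25 ± 1.93 in WT skin, a difference of 3.74 (SE 0.66, adjusted p = 0.000835). The interferon-inducible chemokine gene Cxcl10 was at 9.87 ± 0.22 and 6.40 ± 0.50 (3.46, 1.71e-09), and Cxcl5, which also attracts neutrophils, stood at 7.45 ± 0.77 and 4.64 ± 1.09 (2.81, 2.11e-05). Ptgs2, the inducible cyclooxygenase, was higher by 2.35 (adjusted p = 0.00391). Ccl20, which attracts CCR6-bearing cells, went the other way, with 6.54 ± 0.55 in D6-deficient and 8.75 ± 1.27 in WT skin (-2.20, 0.00051).

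The signalling genes upstream moved in both directions. Of 31 tested adaptors and receptors, 16 were higher and 4 lower on WT day 4, and 17 and 4 on D6-deficient day 4. Of all tested probe sets 39.1% and 41.1% passed on these days in either direction. These shares stand beside the counts of each list in this paragraph, and whether a list exceeded them was not tested. Between genotypes on day 2, 3 of the adaptors and receptors were higher and 1 lower in the D6-deficient mice, where 4.45% of all tested probe sets passed. Higher were Tlr2, a receptor for bacterial lipoproteins (1.11, SE 0.16, adjusted p = 6.51e-05), Tnfrsf1b, a TNF receptor (0.74, 0.00788), and Tradd, a TNF receptor adaptor (0.36, 0.0441). Card14, which encodes a keratinocyte scaffold protein that activates NF-κB, was lower (-0.93, 0.0131). The 13 genes of the IκB kinase complex and its upstream kinases had 3 higher and 3 lower on WT day 4 and 4 and 3 on D6-deficient day 4, and none passed between genotypes on any day. Of 18 tested other inhibitors, 6 were higher and 1 lower on WT day 4 and 8 and 1 on D6-deficient day 4. Their WT count was about the share of all tested probe sets. Nfkbid, the gene of a further nuclear IκB, was higher in D6-deficient skin on day 2 (0.60, SE 0.17, adjusted p = 0.0393). Of 8 isoforms of protein kinase C, the family that includes the enzymes TPA acts on, 1 was higher and 5 lower on WT day 4. On D6-deficient day 4 these counts were 0 and 4. Prkca (-0.68, adjusted p = 0.0151) and Prkcq (-0.67, 0.0316) were lower in D6-deficient skin on day 2.

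The cellular make-up of the skin moved over the same days. The summed level of the 7 neutrophil markers (log2 of the sum of intensities, lowest to highest array) was 8.25 to 8.60 on WT day 0, 9.25 to 10.26 on day 2, 11.68 to 12.70 on day 4 and 8.64 to 9.06 on day 6. In D6-deficient skin it was 8.37 to 8.40, 11.40 to 13.17, 12.69 to 12.91 and 8.86 to 9.94 on the same days. On day 2 all 7 passed between genotypes, higher in the D6-deficient mice (4.45% of all tested passed), while the 10 members showed no difference that passed. On day 4, where the members were highest, 6 of the 7 were higher than on day 0 in WT and all 7 in D6-deficient skin. Of all tested probe sets 17.3% and 18.8% were higher there. The 4 general leukocyte markers summed to 13.08 to 13.30 on WT day 0 and 13.92 to 14.16 on day 4, with 2 of 4 higher, and 3 of 4 were higher on D6-deficient day 4. Of 8 monocyte and macrophage markers 6 were higher and 2 lower on day 4 in either genotype. On day 0 they summed to 13.73 to 14.06 in D6-deficient and 14.23 to 14.41 in WT skin, with no overlap. Dendritic and Langerhans cell markers summed to 13.23 to 13.59 on WT day 0 and 12.66 to 12.91 on day 4. In D6-deficient skin they summed to 13.21 to 13.66 and 12.68 to 12.88. These sums rest mostly on Cd74, with a mean of 13.13 over all arrays, where the next brightest marker, Cd207, had 8.65. They therefore do not show the direction of the other markers of the list. The B cell markers summed to 6.52 to 7.16 over all arrays.

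Keratinocyte markers moved too. The 5 markers of activated keratinocytes summed to 10.41 to 10.997 on WT day 0 and 11.46 to 12.91 on D6-deficient day 0. On that day 3 of 5 were higher in D6-deficient skin (1.57% of all tested passed), and all 10 members had higher point values there. The summed monocyte and macrophage markers went the other way on day 0, as given above. The 6 basal keratinocyte markers summed to 14.27 to 14.31 on WT day 0 and 14.79 to 14.99 on D6-deficient day 0, with no overlap and 3 of 6 higher, and 4 of 6 were lower on D6-deficient day 4 than on its day 0. On day 4 the activated keratinocyte markers were at 15.83 to 15.93 and 15.28 to 15.79, and all 5 were higher than on day 0 in each genotype. Suprabasal keratinocyte markers summed to 15.32 to 15.42 on WT day 0 and 14.12 to 14.61 on day 4, with 4 of 6 lower. In D6-deficient skin they summed to 15.64 to 15.72 and 13.87 to 14.13, with 5 of 6 lower. The 5 skeletal muscle markers were at 16.23 to 16.39 on WT day 0 and 16.07 to 16.21 on D6-deficient day 0, and all 5 were lower on day 4. The part of these shifts in the changes of the 10 genes was not tested.

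**Figure D4:**
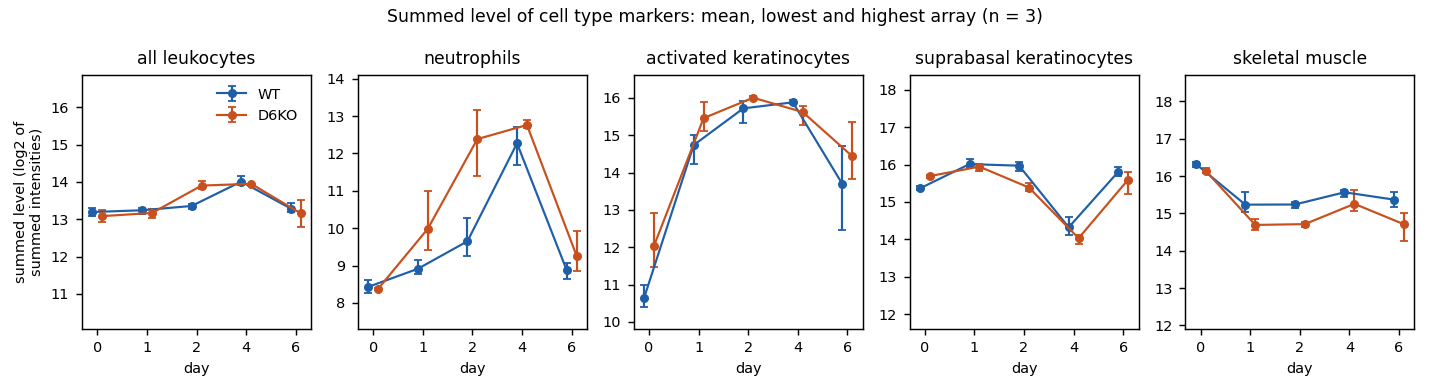
Summed level (log2 of the sum of RMA intensities) of marker genes for leukocytes, neutrophils, activated keratinocytes, suprabasal keratinocytes and skeletal muscle by day, with the mean of 3 arrays and bars from the lowest to the highest array, for WT and D6-deficient skin. Neutrophil markers reach 11.40 to 13.17 on day 2 in D6-deficient skin, when WT skin is at 9.25 to 10.26.

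The members resembled one another to different degrees. Over the 10 group means, which share their arrays between genes, Pearson's r was 0.97 for Nfkb2 and Bcl3, 0.96 for Nfkb2 and Nfkbie and 0.93 for Nfkb1 and Rel, but 0.21 for Nfkb1 and Rela. Outside the family, the 3 genes with the pattern closest to that of Rel were Slc28a3 (r = 0.986), Cdk5r1 (0.984) and Btbd3 (0.980). Those closest to Nfkbiz were Zfand5 (0.962), 2810474O19Rik (0.959) and Slc4a8 (0.958), and those closest to Bcl3 were Cytip (0.988), Osmr (0.985) and Rbms1 (0.983). These are the highest of all tested probe sets over 10 points and are given as a description.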

How the data were processed

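Total RNA of whole back skin was hybridised to Affymetrix Mouse430_2 arrays. The authors processed the arrays by RMA in GeneSpring GX and deposited linear intensity values, 1 column per array. All 30 columns matched a sample by name and 0 were left over. A second deposited text held a sample sheet only and was not used. Of 45101 probe sets, 64 array controls and then the dimmest 9008 (20%) by mean were left out, which kept means from 3.72 on the log2 scale. The log2 intensities were fitted in R 4.3.3 with limma 3.58.1 (lmFit and eBayes, 1 mean per group, all arrays) and p-values adjusted by Benjamini-Hochberg. The methods name an unpaired t test at p under 0.05 with a change over 3-fold, run here as an alternative. Pipelines were tested on simulated data. Figures were drawn in Python 3.11.15 with matplotlib 3.10.9.

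The members and gene lists were chosen with earlier results of these data known. Genes are named by rule: all probe sets of the 10 members, the brightest standing for the gene; at most 5 genes of each other pathway list, those with the largest difference between genotypes on day 2 among those that passed; for members spanning at least 1 on the log2 scale, the 3 genes with the highest Pearson's r over group means; and the D6 gene. Precision is limited by the number of arrays, 3 per group. The median SD between arrays of a group was 0.187, and array medians were 5.64 to 5.80. Promoter sequences came from RefSeq.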

Additional observations from a re-analysis of the deposited data

Results flagged for a closer look

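For 5 named genes of the pathway the change from day 0 to day 2 differed between D6-deficient and WT skin in limma's test of that difference. It used 3 arrays in each of the 4 groups involved, and 5.40% of all tested probe sets passed. The named genes had been picked for a difference between genotypes on day 2 that passed. That difference is part of the value tested here, so passing again is not separate support. The D6-deficient change was larger for Tlr2 by 1.53 (SE 0.22, adjusted p = 0.000159), where the changes were 1.75 in D6-deficient and 0.22 in WT skin. It was larger for Cxcl10 by 2.55 (SE 0.34, adjusted p = 4.94e-05), with changes of 2.70 and 0.15, and for Cxcl5 by 2.58 (SE 0.52, adjusted p = 0.00325), with changes of 4.19 and 1.60. For Card14 the difference was -1.81 (SE 0.32, adjusted p = 0.00104), from a change of -1.14 in D6-deficient and 0.68 in WT skin. For Ccl20 it was -3.37 (SE 0.52, adjusted p = 0.000356), from -0.56 and 2.81. These values also contain the day 0 difference between genotypes. Day 0 means in D6-deficient and WT skin were 7.06 and 7.48 for Tlr2, 7.17 and 6.26 for Cxcl10, and 3.27 and 3.04 for Cxcl5. They were 7.90 and 7.02 for Card14 and 7.10 and 5.94 for Ccl20. None of the 19 probe sets of the 10 members passed this test on any day by limma.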

How the results depend on the processing

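Counts of passing member probe sets changed by more than 1.5 times under 5 of the alternatives, and also when some single arrays were left out. A required change over 3-fold left 0 on WT days 1 and 6, 1 on WT days 2 and 4, 0 on D6-deficient days 1, 2 and 6, 1 on D6-deficient day 4 and 0 between genotypes on day 4. The methods' t-test at their threshold gave the same counts, and after Benjamini-Hochberg adjustment 1 on WT day 4 and 0 in each of the others. Centring each array on its median, which moved differences by up to 0.11, left 1 on WT day 6 and 0 between genotypes on day 4. Fitting only the arrays of a contrast left 1 on WT day 6, 5 on D6-deficient day 6 and 0 between genotypes on day 4. Without 1 array at a time the counts were 1 to 3 on WT day 1, 3 to 7 on day 2, 9 to 12 on day 4 and 0 to 3 on day 6. They were 7 to 10 on D6-deficient day 1, 1 to 4 on day 2, 10 to 14 on day 4 and 6 to 10 on day 6. Between genotypes they were 0 to 1 on days 0 and 4 and 0 on days 1, 2 and 6, and for the difference in change 0 to 1 on day 2 and 0 on days 1, 4 and 6. Replicate numbers do not pair the arrays (median correlation of deviations between same-numbered arrays -0.01, and 31 of 135 pairs over 0.1). With the replicate number as a block the counts were 2 on WT day 6 and 4 on D6-deficient day 2 and otherwise as reported. Of 30 gene differences past the threshold, 21 stayed past under every alternative that was run by gene, and 0 turned sign. The 3-fold rule and the t-tests were applied to the counts only and are not among these. Of 140 not past it, 26 of 2200 alternative values passed. Besides the values given in the report, Nfkbia on WT day 6 was lost with the replicate block (0.054). Gained were Rel on D6-deficient day 2 with centring (0.0342) or a 40% filter (0.0475), Bcl3 there with the replicate block (0.0186), Nfkbie there for the mean of its probe sets (0.044), and Nfkbia on D6-deficient day 4 with centring (0.0324) or the mean of its probe sets (0.00753). The cause was not tested.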
